A study of Danio rerio with 28 samples.

Results

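The lowest tested dose of PCB126 (3,3',4,4',5-pentachlorobiphenyl) was compared with control in whole zebrafish larvae of the wild-type AB strain. Members are the 4 libraries labelled PCB126 0.08 nM and the 4 labelled control, 8 of the 28 libraries in the series. The embryos stood in E3 medium at 28.5 °C, and exposed groups received the chemical from day 1 to day 5 after fertilization, when polyadenylated RNA was sequenced. The other 5 groups of 4 libraries received PCB126 at 0.4 or 0.8 nM, or cadmium (Cd) at 2.4, 12 or 24 ug/L. All 7 groups were the same genotype. The labels name no vehicle for PCB126 and give neither the clock time of collection nor the lighting. The control column names carry the prefix of the Cd series, and no second control is named. Whatever else set the control and PCB126 larvae apart cannot be told apart from PCB126 in this comparison.

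PCB126 is a dioxin-like biphenyl that binds the aryl hydrocarbon receptor (AhR), a ligand-activated transcription factor. The bound receptor enters the nucleus, pairs with Arnt and switches on genes of foreign compound metabolism, among them the cytochrome P450 family 1. In zebrafish, Ahr2 carries most of the developmental toxicity of dioxin-like compounds, and the AhR repressors dampen the response. Zebrafish tissues also hold light-sensitive clocks, in which light induces per2, several cryptochromes and genes of DNA repair.

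Library totals ran from 13742360 to 16972198 counts in the 8 libraries and from 11893345 to 20770004 in all 28. Control replicate 4 stood apart: ribosomal protein genes took 12.5% of its counts, against 6.33 to 6.36% in control replicates 1 to 3 and 6.63 to 6.82% at PCB126 0.08 nM. Its scaling factor (TMM) was 0.646, against 0.993 to 1.07 in the other 7 libraries, and Cd 2.4 ug/L replicate 3 diverged in the same way. Results are given with all 28 libraries, and many also without control replicate 4. Without it the groups still differed in composition. On the first principal component of log2 CPM, control replicates 1 to 3 lay at -28.4 to -21. The exposed libraries lay at -12.8 to 11.2 and control replicate 4 at 182. The count-weighted median gene length was 2791 to 2795, 2659 to 2750 and 1978 bases in these sets. Totals were 15554194 to 15858886 in control replicates 1 to 3 and 13742360 to 14630267 at PCB126 0.08 nM. The part of composition and depth in the results was not tested. Of 28 tissue markers, 26 were counted in all 8 libraries, vmhc was not matched, and alas2, a red blood cell marker, had no counts.

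Few genes differed at PCB126 0.08 nM. Of 25393 genes tested with edgeR's quasi-likelihood test, 98 (0.386%) passed an adjusted p of 0.05: 76 rose (0.299%) and 22 fell (0.0866%). Among the 76, 64 were protein-coding and 10 were loci without an Ensembl identifier, and 19 rose at least 2-fold, while 34 rose by less than 1.5-fold. Of the 22 genes that fell, 7 fell at least 2-fold. In all 98 the groups did not overlap, which also held for 3.35% of tested genes in the higher and 1.8% in the lower direction. Without control replicate 4, 104 of 25647 genes passed (0.406%), 86 higher (0.335%) and 18 lower (0.0702%), and 58 of the 76 rises and 9 of the 22 falls were called again. Without both divergent libraries 2005 genes passed (7.83%), 914 higher (3.57%) and 1091 lower (4.26%), among them all 76 rises and all 22 falls. The number of called genes at this dose thus depended on those 2 libraries. With only PCB126 0.08 nM and control replicates 1 to 3 in the model 6.53% of tested genes passed (3.14% higher), and with ribosomal protein share as a covariate 3.06% passed. Leaving out PCB126 0.08 nM replicate 1 or 4 left 55 calls, and leaving out replicate 3 left 58. An edgeR model of the 8 libraries alone called 11 genes, all higher, among them cyp1a, cyp1c1, per2, cry5, cry1bb, cry1aa, eevs, tefa, lonrf1l and klf2b. It called no gene lower, with 485 lower at an unadjusted p below 0.05, while DESeq2 on all 28 libraries called 65 lower. The falls described here did not pass in that model. Nor did most of the rises described here beyond the genes it is named as calling, among them cyp1c2, ugt1b1, ahrra, nfe2l2b, lonrf1, cry-dash and sele. The 8-library model keeps control replicate 4, and the 6.53% above is the same pair of groups without it.

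The largest rise was in cyp1a, the cytochrome P450 1A monooxygenase that metabolises planar aromatic compounds (GRCz11 chromosome 18, 5588068 to 5598958). Its level, in CPM (counts scaled to a common library size with TMM factors), was 43.2, 38.9, 40.1 and 51.1 in control replicates 1 to 4. It was 489, 542, 545 and 497 at PCB126 0.08 nM. The exposed libraries were all far above the controls and close to each other, and control replicate 4 lay near the other controls. The difference was 3.58 ± 0.12 (SE) on the log2 scale (edgeR adjusted p = 3.90e-16), 12-fold. Relative to gene length, the mean level was 32.1 TPM in control and 416 TPM at 0.08 nM.

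The duplicated P450 genes cyp1c1 and cyp1c2 followed in smaller steps. For cyp1c1 (unplaced scaffold KN150425.1, 103570 to 106640) the controls held 21.9, 22.4, 22.1 and 23.3 CPM and the exposed libraries 92.8, 95.7, 85.7 and 84.2 CPM. The groups were well separated, at 2.00 ± 0.09 log2 (edgeR adjusted p = 3.80e-14), 4-fold. For cyp1c2 (chromosome 17, 996509 to 998695) the controls held 4.76, 5.25, 4.78 and 5.02 CPM and the exposed libraries 10.5, 9.84, 8.87 and 7.68 CPM, with no overlap. Its rise was 0.90 ± 0.15 log2 (edgeR adjusted p = 0.00276). On the TPM scale the mean levels at 0.08 nM were 416 for cyp1a, 61.2 for cyp1c1 and 8.85 for cyp1c2, so cyp1a held the most transcript per length of the 3. The family 1 member cyp1d1, at -0.04 ± 0.10 log2 (edgeR adjusted p = 0.932), did not pass. Another, cyp1b1, had 9 counts over all libraries and was not tested.

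**Figure D1:**
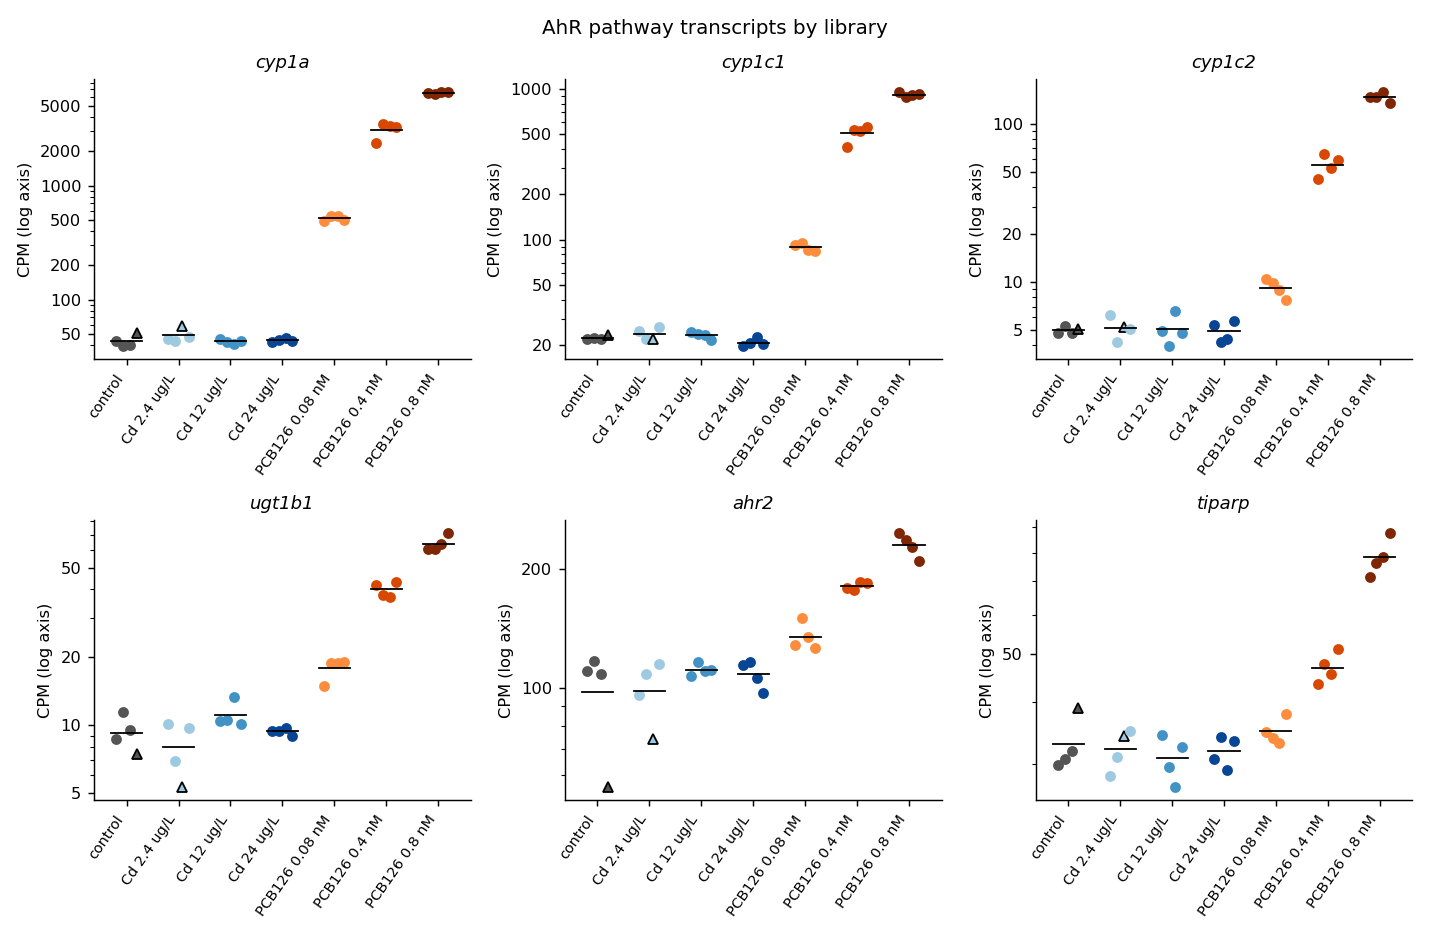
Levels of 6 AhR pathway transcripts in CPM (log axis) in each library of the 7 groups. Points are libraries, horizontal bars are group means, and triangles mark control replicate 4 and Cd 2.4 ug/L replicate 3. For cyp1a the 4 libraries at PCB126 0.08 nM lie between 489 and 545 CPM, above every control and Cd library and below every library of the higher PCB126 doses.

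Transcripts of the AhR repressor ahrra, listed in the deposited table as CABZ01114318.1, also rose. The controls held 3.15, 3.5, 3.05 and 5.11 CPM and the exposed libraries 6.04, 5.9, 7.11 and 8.16 CPM, with control replicate 4 the highest control. The difference was 0.89 ± 0.18 log2 (edgeR adjusted p = 0.0147), and 1.08 without control replicate 4 (edgeR adjusted p = 0.00215). Leaving out any 1 of 5 libraries (control replicate 1, 2 or 3, or PCB126 0.08 nM replicate 3 or 4) ended this call. The other repressor, ahrrb, had 87 counts over all libraries and was not tested.

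Another rise was in ugt1b1. This glucuronosyltransferase gene, whose product conjugates phenolic compounds, had 8.68, 11.5, 9.51 and 7.48 CPM in control and 15, 18.8, 18.8 and 19.1 CPM at 0.08 nM. It rose by 0.95 ± 0.15 log2 (edgeR adjusted p = 0.00183), although its locus overlaps other ugt1b genes on the same strand and reads may be shared among them. For nfe2l2b, a paralogue of the Nrf2 regulator of antioxidant genes, the controls held 4.93, 5.01, 4.43 and 5.38 CPM and the exposed libraries 7.55, 8.29, 9.83 and 7.88 CPM. Its rise of 0.77 ± 0.16 log2 (edgeR adjusted p = 0.024) was lost when any 1 of 6 libraries was left out (control replicate 1, 2 or 3, or PCB126 0.08 nM replicate 2, 3 or 4). Against the mean of the 3 Cd groups, nfe2l2b differed by 0.28 ± 0.13 log2 (edgeR adjusted p = 0.819).

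Several genes of the AhR response that were called between the 0.8 and 0.08 nM doses did not pass at 0.08 nM. The receptor ahr2 had 110, 117, 108 and 55.9 CPM in control, with replicate 4 far below the rest, and 128, 150, 134 and 126 CPM at 0.08 nM. The groups did not overlap, but the difference of 0.46 ± 0.15 log2 did not pass (edgeR adjusted p = 0.29); without both divergent libraries it was 0.28 and passed (edgeR adjusted p = 0.0179), as it did with the ribosomal covariate (0.39, edgeR adjusted p = 0.00258). The ADP-ribosyltransferase gene tiparp, a feedback inhibitor of AhR known from mammals, was at 29.9, 30.7, 31.9 and 38.8 CPM in control and 34.8, 33.8, 33.1 and 37.8 CPM when exposed. These groups overlapped (0.09 ± 0.10 log2, edgeR adjusted p = 0.806). Control replicates 1 to 3 lay below every exposed library, and without control replicate 4 the tiparp difference was 0.18 log2 and did not pass (edgeR adjusted p = 0.512). The forkhead genes foxq1a (0.53 ± 0.20 log2, edgeR adjusted p = 0.432) and foxq1b (0.43 ± 0.19 log2, edgeR adjusted p = 0.535) did not pass with all libraries. Without both divergent libraries they passed at 0.70 and 0.67 log2 (edgeR adjusted p = 0.0128 and 0.0025). They also passed with the ribosomal covariate (edgeR adjusted p = 0.0129 and 0.00413) and with control replicates 1 to 3 and the exposed libraries alone (edgeR adjusted p = 0.012 and 0.0114). The growth factor fgf7 (0.52 ± 0.35 log2, edgeR adjusted p = 0.671) and sox9b, a cartilage and heart regulator known to be repressed by dioxin in zebrafish (-0.11 ± 0.09 log2, edgeR adjusted p = 0.718), did not pass. Nor did the receptor paralogues ahr1a (-0.48 ± 0.28 log2, edgeR adjusted p = 0.628) and ahr1b (0.16 ± 0.42 log2, edgeR adjusted p = 0.934). For ahr1b control replicate 4, at 2.01 CPM, was far below the other controls, and without it the difference was -0.19 log2 (edgeR adjusted p = 0.886).

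Of the 14 tested members of the AhR list, 4 rose, beside 0.299% of all tested genes. The list median was 0.44 log2, beside -0.03 for all genes, and 0.27 beside 0.01 without control replicate 4. Without both divergent libraries 7 of the 14 rose, beside 3.57% of all genes tested in that fit. With the ribosomal covariate 7 rose, beside 2% of all genes.

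The P450 transcripts were higher still at the higher PCB126 doses. Between 0.8 and 0.08 nM, 260 of 25393 genes passed (1.02%), 169 higher (0.666%) and 91 lower (0.358%) at the higher dose. Leaving out any 1 of these 8 libraries gave 160 to 214 calls. With only these 8 libraries in the model the count was 1700, and without both divergent libraries it was 2811. Mean cyp1a rose from 518 ± 29.7 CPM (SD, n = 4) at 0.08 nM to 3105 ± 485 at 0.4 nM and 6553 ± 133 at 0.8 nM. The 0.8 nM group exceeded the 0.08 nM group by 3.66 ± 0.12 log2 (edgeR adjusted p = 1.09e-16). For cyp1c1 this difference was 3.36 ± 0.09 log2 (edgeR adjusted p = 1.15e-18) and for cyp1c2 4.00 ± 0.15 log2 (edgeR adjusted p = 1.49e-15). It was 2.73 ± 0.21 log2 for foxq1a (edgeR adjusted p = 3.87e-09), 3.55 ± 0.33 for fgf7 (edgeR adjusted p = 1.33e-07), 1.17 ± 0.10 for tiparp (edgeR adjusted p = 2.60e-08), 0.77 ± 0.15 for ahr2 (edgeR adjusted p = 0.00674) and -1.32 ± 0.09 for sox9b (edgeR adjusted p = 5.48e-10). The last 5 genes thus differed between these doses but did not pass against control at the lower one.

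The P450 genes were also tested against the Cd libraries, a comparison of group means that includes no control library. The spread was still estimated in the fit of all 28 libraries, controls included. Against the mean of the 3 Cd groups, 63 genes passed (0.248%), 26 higher (0.102%) and 37 lower (0.146%) at PCB126 0.08 nM. With only PCB126 0.08 nM and the Cd groups in the model the count was 52, and without both divergent libraries it was 1234. Without PCB126 0.08 nM replicate 1, 2 or 3 the count was 32, 29 or 38, and without Cd 2.4 ug/L replicate 3 it was 105. In this test cyp1a was higher by 3.52 ± 0.08 log2 (edgeR adjusted p = 3.93e-20), cyp1c1 by 1.99 ± 0.06 (edgeR adjusted p = 3.16e-17), cyp1c2 by 0.88 ± 0.12 (edgeR adjusted p = 1.69e-04), ugt1b1 by 0.92 ± 0.12 (edgeR adjusted p = 1.05e-04) and ahrra (CABZ01114318.1) by 0.68 ± 0.14 (edgeR adjusted p = 0.0238).

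The second group of large rises was made of light-induced clock and DNA repair genes. Of 11 tested members of that list, 8 rose, beside 0.299% of all tested genes. The same 8 were called higher without control replicate 4, beside 0.335% of all genes in that fit. The list median was 0.88 log2, beside -0.03 for all genes, and 1.00 beside 0.01 without control replicate 4. The gene per2, a light-induced repressor of the clock (chromosome 2, 48309600 to 48375342), had 28.1, 27.5, 26.4 and 24.3 CPM in control and 216, 225, 204 and 214 CPM at 0.08 nM. All exposed libraries were far above all controls, by 3.01 ± 0.12 log2 (edgeR adjusted p = 1.41e-14), 8.07-fold.

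The photolyase-family gene cry5, which repairs ultraviolet damage in zebrafish, had 3.98, 3.38, 4.13 and 6.3 CPM in control and 17.5, 16.8, 16.1 and 14 CPM when exposed. It rose by 1.87 ± 0.17 log2 (edgeR adjusted p = 1.31e-07). The cryptochrome cry1bb, outside this list, had 17.8, 15, 17.1 and 14.6 CPM in control and 36.7, 44.7, 40.5 and 43.8 CPM when exposed. Its rise was 1.36 ± 0.08 log2 (edgeR adjusted p = 4.74e-11). In both genes the groups stood clear of each other, and control replicate 4 was high for cry5 and low for cry1bb among the controls. The light-induced repressor cry1aa rose by 0.89 ± 0.06 log2 (edgeR adjusted p = 1.53e-09), from 91.8 to 103 CPM in the controls to 176 to 189 CPM.

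Further genes rose too, by less than per2 and cry5. The bZIP factor tefa, which binds D-box elements, was at 46.7, 48, 46.1 and 57.5 CPM in control and 106, 95.8, 118 and 101 CPM when exposed (1.09 ± 0.17 log2, edgeR adjusted p = 0.00165). The ring finger gene lonrf1 was at 20.6, 14.5, 17.8 and 10 CPM in control and 42.2, 42, 41.7 and 47.5 CPM when exposed (1.45 ± 0.18 log2, edgeR adjusted p = 3.82e-05). Its relative lonrf1l, outside the list, went from 45.8, 45.2, 46.4 and 50.5 CPM to 124, 120, 123 and 122 CPM (1.38 ± 0.07 log2, edgeR adjusted p = 8.07e-13). In these 3 genes no exposed library reached down to a control. The single-strand DNA photolyase gene cry-dash rose by 0.88 ± 0.14 log2 (edgeR adjusted p = 0.00155), the damage sensor xpc of nucleotide excision repair by 0.64 ± 0.12 (edgeR adjusted p = 0.00672) and the cryptochrome cry1ab by 0.49 ± 0.09 (edgeR adjusted p = 0.0116). Omitting control replicate 3 or PCB126 0.08 nM replicate 1 or 4 ended the call for cry1ab. The damage sensor ddb2 (0.75 ± 0.28 log2, edgeR adjusted p = 0.43), the glycosylase neil1 (0.06 ± 0.21, edgeR adjusted p = 0.957) and tefb (0.48 ± 0.46, edgeR adjusted p = 0.777) did not pass. Antisense or overlapping genes at cry5, lonrf1 and lonrf1l could share reads with them, since the strand setting of the counting is not given.

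**Figure D2:**
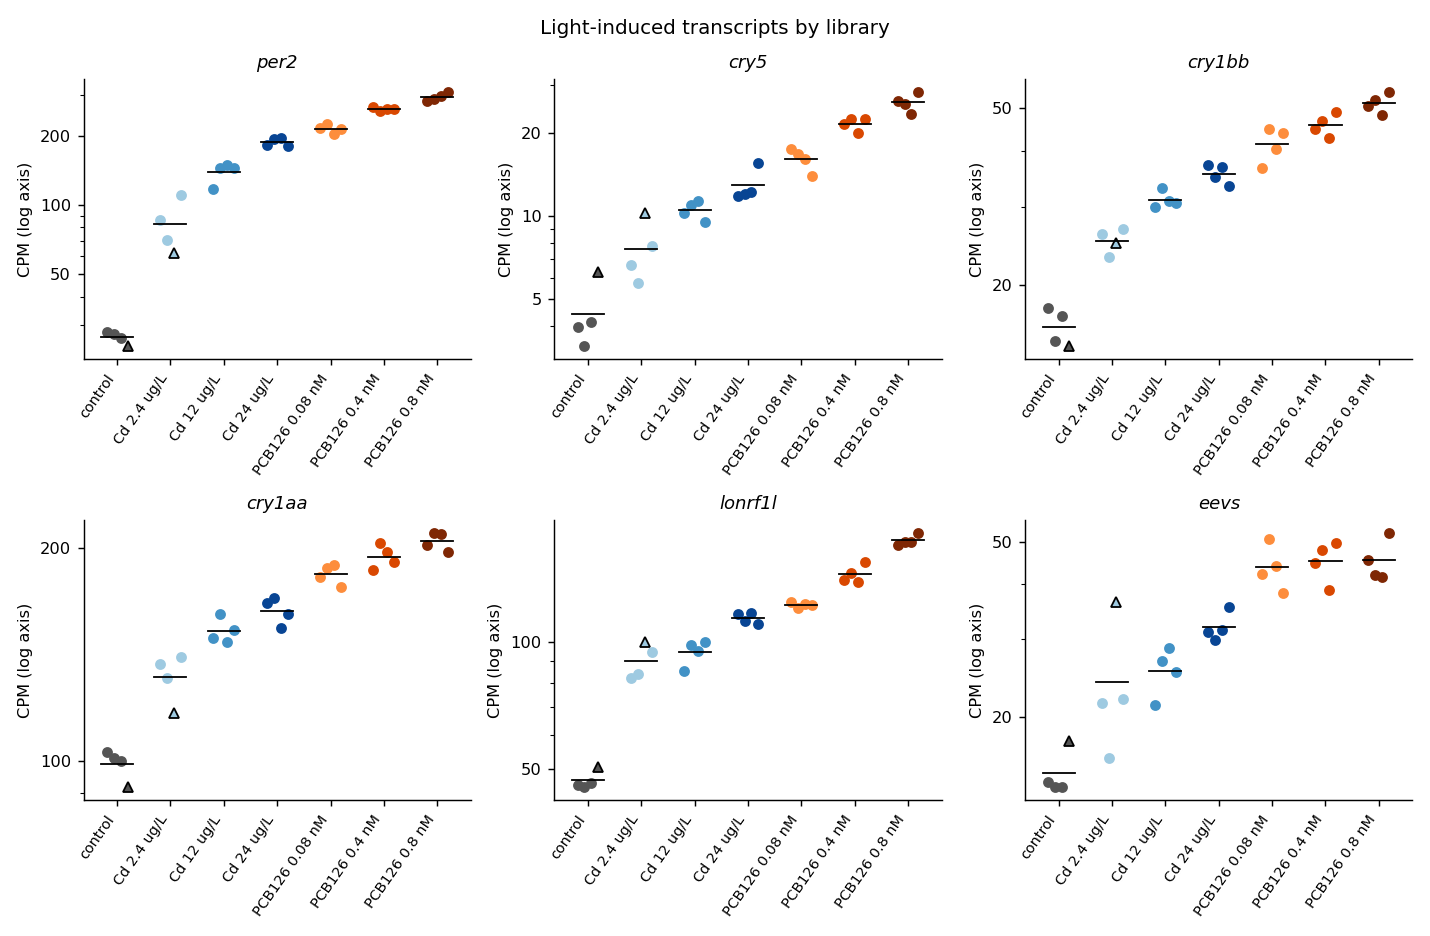
Levels of 6 light-induced or accompanying transcripts in CPM (log axis) in each library of the 7 groups. Points are libraries, horizontal bars are group means, and triangles mark control replicate 4 and Cd 2.4 ug/L replicate 3. For per2 the group means climb from 26.6 CPM in control through the 3 Cd groups to 215 CPM at PCB126 0.08 nM and 296 CPM at 0.8 nM.

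Levels of these genes were above control in the cadmium groups too. Mean per2 was 26.6 ± 1.67 CPM (SD, n = 4) in control, 82.4 ± 21.4 at Cd 2.4 ug/L, 139 ± 14.9 at Cd 12 ug/L and 188 ± 7.71 at Cd 24 ug/L. It was 215 ± 8.72 CPM at PCB126 0.08 nM, 262 ± 3.9 at 0.4 nM and 296 ± 12.1 at 0.8 nM. Neighbouring groups in this order did not overlap. Of the 11 list members, 10 had their lowest group mean in control and 9 their highest at PCB126 0.8 nM, and 4 (per2, cry1aa, cry5 and cry-dash) kept the whole order seen for per2. Against the mean of the Cd groups the difference of per2 at PCB126 0.08 nM was 0.73 ± 0.09 log2 (edgeR adjusted p = 5.67e-05), against 3.01 relative to control. For cry5 it was 0.67 ± 0.13 (edgeR adjusted p = 0.012), for cry1bb 0.45 ± 0.06 (edgeR adjusted p = 4.63e-04) and for tefa 0.53 ± 0.13, which did not pass (edgeR adjusted p = 0.125). Compared with cyp1a, whose Cd groups stayed at 43 to 48.5 CPM on average, per2 did not separate PCB126 from Cd in the same way. The order of the per2 means is also the order in which the groups stand as columns in the deposited count table. The labels state neither the order nor the time of day of collection, and their part in these differences was not tested.

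Most core clock genes did not pass with all libraries. Of 29 tested core clock genes, 1 rose (cry1bb), beside 0.299% of all tested genes, and the list median was 0.14 log2 beside -0.03, and 0.03 beside 0.01 without control replicate 4. Without both divergent libraries 5 of the 29 were called higher, beside 3.57% of genes in that fit, and 4 lower, beside 4.26%. With the ribosomal covariate 7 were called higher, beside 2% of genes, and 1 lower, beside 1.06%. The cryptochrome cry2 had 58, 62, 62.1 and 22.9 CPM in control, with replicate 4 far below the rest, and 81.5, 74.2, 82 and 80.7 CPM when exposed. These groups did not overlap, but the difference of 0.63 ± 0.21 log2 did not pass (edgeR adjusted p = 0.297); without both divergent libraries it was 0.40 and passed (edgeR adjusted p = 4.73e-05). The repressor per1b was at 226 ± 57.7 CPM (SD, n = 4) in control and 246 ± 9.94 at 0.08 nM (0.12 ± 0.15 log2, edgeR adjusted p = 0.837). Control replicate 4, at 139 CPM, was its lowest control, and without that library the difference was -0.05 log2 (edgeR adjusted p = 0.938). The nuclear receptor nr1d1 was at 222 ± 24.4 and 220 ± 11.2 CPM (-0.02 ± 0.09 log2, edgeR adjusted p = 0.97). By counts at an unadjusted p below 0.05, 6 of the 29 were higher and none was lower, beside 8.95% of all tested genes in either direction. DESeq2 called 2 higher and none lower, beside 169 higher and 65 lower among all tested genes.

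Among other large rises, eevs, which makes a precursor of the sunscreen gadusol in fish, went from 14.2, 13.8, 13.8 and 17.6 CPM to 42.1, 50.6, 43.9 and 38.1 CPM (1.56 ± 0.17 log2, edgeR adjusted p = 4.21e-06). Its exposed libraries were all above the controls, and the 0.8 nM group differed from the 0.08 nM group by 0.05 ± 0.16 log2 (edgeR adjusted p = 0.981). The adhesion molecule gene sele, low throughout at 1.55 to 2.41 CPM in control and 4.18 to 5.97 CPM when exposed, rose by 1.47 ± 0.20 log2 (edgeR adjusted p = 1.94e-04), and its locus overlaps another gene. The flow-responsive factor klf2b had 26.5, 27.4, 30 and 26.8 CPM in control and 48.7, 51, 47.2 and 48.2 CPM when exposed. It rose by 0.82 ± 0.10 log2 (edgeR adjusted p = 7.33e-05). Levels at Cd 24 ug/L were also above every control in these genes. For eevs the mean was 14.8 CPM in control, 32 at Cd 24 ug/L and 43.7 at PCB126 0.08 nM. For sele these means were 1.86, 3.7 and 5.19 CPM. The Cd 24 ug/L libraries held 40, 34.2, 38.5 and 37.7 CPM of klf2b.

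The genes that fell included immediate early genes, which respond to stimuli within minutes. Of 31 tested, 3 fell (btg2, nr4a1 and dusp1), beside 0.0866% of all tested genes, and 1 rose (klf2b). The same 4 were called without control replicate 4, beside 0.335% of all genes higher and 0.0702% lower. The list median was -0.26 log2, beside -0.03 for all genes. The orphan nuclear receptor gene nr4a1 had 57.6, 48.5, 40.1 and 48.4 CPM in control and 26.4, 30.2, 24.1 and 28.1 CPM at 0.08 nM, with no overlap and control replicate 4 among the other controls. It fell by 0.84 on the log2 scale (SE 0.14, edgeR adjusted p = 0.00276). The phosphatase gene dusp1, which switches off MAP kinases, had 69.4, 58.8, 60.9 and 69.5 CPM in control and 43.2, 39.6, 39.7 and 40.8 CPM when exposed (-0.66 ± 0.11 log2, edgeR adjusted p = 0.00334). The anti-proliferative gene btg2 had 59.7 to 97.3 CPM in control, with replicate 4 the highest, and 40, 36.3, 41.4 and 43.5 CPM when exposed (-0.89 ± 0.16 log2, edgeR adjusted p = 0.00613). Both groups were clear of each other in each of these genes. The 3 genes also differed from the Cd groups: nr4a1 by -0.91 ± 0.12 log2 (edgeR adjusted p = 1.69e-04), dusp1 by -0.62 ± 0.10 (edgeR adjusted p = 0.00111) and btg2 by -0.92 ± 0.14 (edgeR adjusted p = 7.93e-04). Their levels at 0.08 and 0.8 nM did not pass a test of difference, at -0.21 ± 0.14 log2 for nr4a1 (edgeR adjusted p = 0.72), 0.21 ± 0.11 for dusp1 (edgeR adjusted p = 0.58) and -0.00 ± 0.16 for btg2 (edgeR adjusted p = 1).

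Several of the largest falls leaned on control replicate 4. For bicdl2, a dynein adaptor gene, the controls held 24.6, 20, 19.3 and 42.9 CPM and the exposed libraries 10.5, 9.14, 9.9 and 11.2 CPM. It fell by 1.38 on the log2 scale (SE 0.24, edgeR adjusted p = 0.00424), and by 1.06 without control replicate 4 (edgeR adjusted p = 0.0186). The transcription factor gene cebpd, a glucocorticoid and inflammation target, had 224, 206, 203 and 501 CPM in control and 123, 106, 118 and 125 CPM when exposed. Its difference of -1.27 ± 0.27 log2 passed (edgeR adjusted p = 0.0285), but -0.84 without control replicate 4 did not (edgeR adjusted p = 0.12), nor did it without any 1 of the 4 exposed libraries. The collagen chaperone gene serpinh1b had 35.3, 37.8, 37.5 and 72.9 CPM in control and 18.6, 18.7, 20.2 and 22.1 CPM when exposed. Its difference was -1.20 ± 0.23 log2 (edgeR adjusted p = 0.0118), -0.88 without control replicate 4 (edgeR adjusted p = 0.0501), and -0.17 ± 0.19 against the Cd groups (edgeR adjusted p = 1). Leaving out PCB126 0.08 nM replicate 1 or 2 also ended the serpinh1b call, and the locus overlaps gdpd5b on the opposite strand. In cebpd and serpinh1b, control replicates 1 to 3 alone were still above every exposed library. Without both divergent libraries both genes passed, cebpd at -0.84 log2 (edgeR adjusted p = 7.70e-04) and serpinh1b at -0.88 (edgeR adjusted p = 0.00384).

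**Figure D3:**
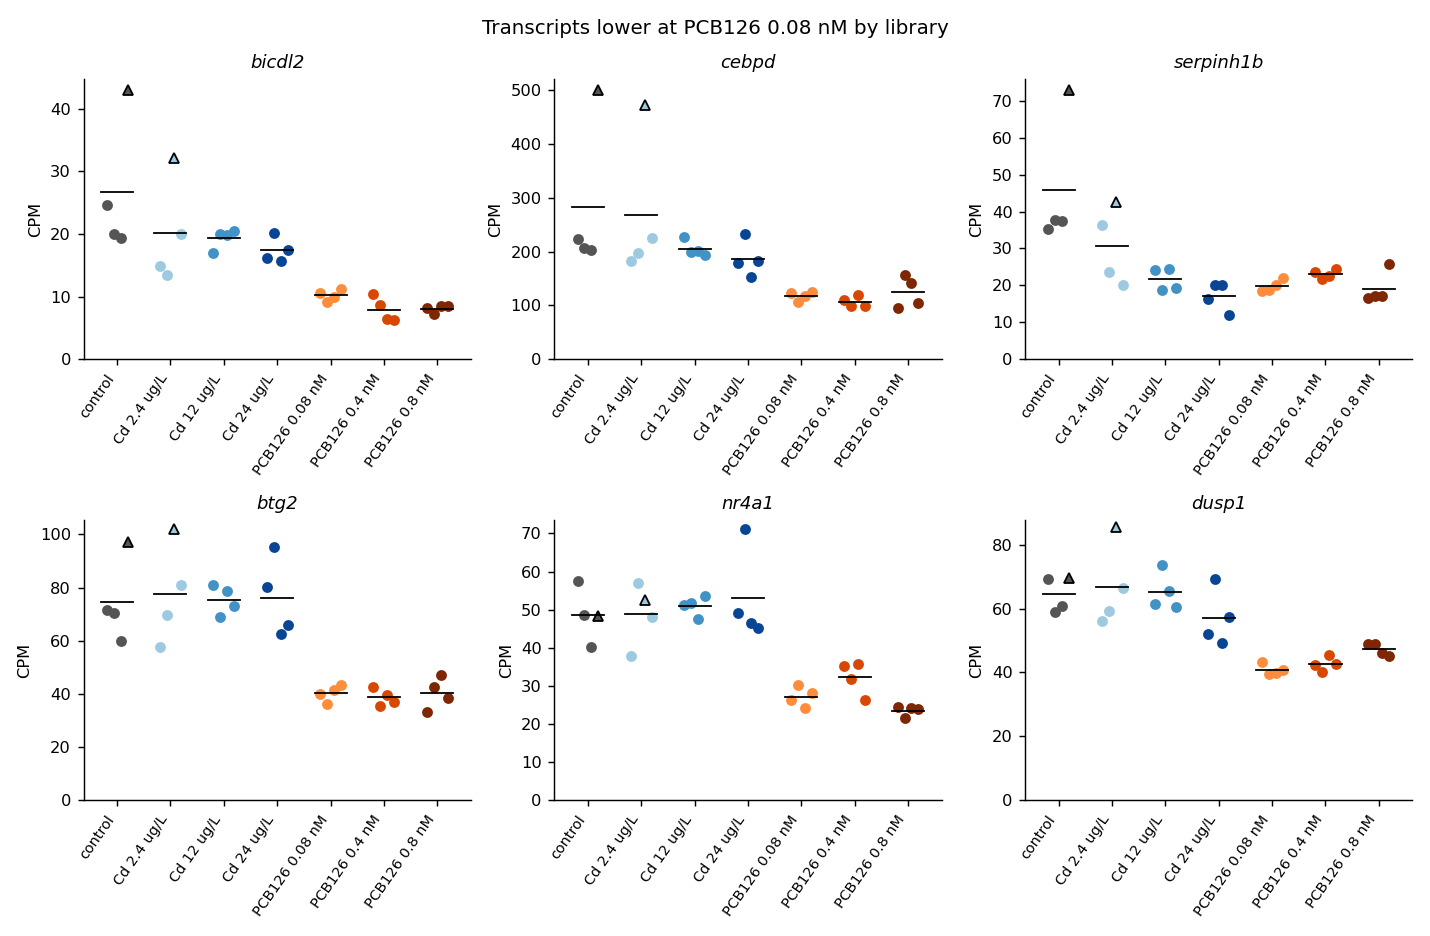
Levels of 6 transcripts that were lower at PCB126 0.08 nM, in CPM (linear axis from 0), in each library of the 7 groups. Points are libraries, horizontal bars are group means, and triangles mark control replicate 4 and Cd 2.4 ug/L replicate 3. Control replicate 4 is the highest control for bicdl2 (42.9 CPM), cebpd (501), serpinh1b (72.9) and btg2 (97.3), while nr4a1 lies among the other controls.

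A pair of fatty acid elongase genes fell, elovl7b by 1.09 (SE 0.24, edgeR adjusted p = 0.0356) and elovl6l by 0.73 on the log2 scale (SE 0.14, edgeR adjusted p = 0.0103). For elovl6l, a long-chain elongase relative, the controls held 16.8, 15.7, 19.6 and 17.4 CPM and the exposed libraries 9.35, 10.3, 11.2 and 10.8 CPM. The call for elovl7b was lost when any 1 of 6 libraries was omitted (control replicate 2 or 4, or any exposed library), and that for elovl6l without PCB126 0.08 nM replicate 1. Of the 20 tested genes of fatty acid synthesis and elongation, 1 was called lower (elovl7b), beside 0.0866% of all genes, with a list median of -0.12 log2, and -0.17 without control replicate 4. The phospholipid scramblase relative xkr8.2 fell by 1.06 (SE 0.19, edgeR adjusted p = 0.00644), the co-chaperone dnajc16 by 0.85 (SE 0.15, edgeR adjusted p = 0.00672), the small GTPase relative arl5c by 0.94 (SE 0.18, edgeR adjusted p = 0.0142), the deubiquitinase cyldb by 0.85 (SE 0.18, edgeR adjusted p = 0.0269) and the cell cycle gene cdca7a by 0.85 on the log2 scale (SE 0.19, edgeR adjusted p = 0.0486). Without control replicate 4 the calls for arl5c (edgeR adjusted p = 0.0599) and cdca7a (edgeR adjusted p = 0.147) were lost, while those for xkr8.2, dnajc16 and cyldb remained. The cyldb call was lost without control replicate 1 or 2, or PCB126 0.08 nM replicate 1, 2 or 4. Omitting PCB126 0.08 nM replicate 1 or 4 ended the arl5c call, and omitting control replicate 1 or any exposed library ended that for cdca7a. All 22 genes called lower with all 28 libraries, these among them, passed without both divergent libraries and with the ribosomal covariate.

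Setting control replicate 4 aside brought out other genes, a few photoreceptor genes among them. Of 47 tested photoreceptor genes, 3 were then called higher and none lower, beside 0.335% and 0.0702% of all genes. Their median was 0.08 log2, beside 0.01 for all genes, and 34 of the 47 were above 0. In every comparison without control replicate 4, the exposed libraries still differed from the remaining controls in composition, in the direction of that library. The cone phosphodiesterase subunit gene pde6ha had 55.6, 57.4, 53.9 and 175 CPM in control and 128, 117, 130 and 128 CPM when exposed. Control replicate 4 was above every exposed library and the other controls were below, so its difference was 0.56 ± 0.30 log2 with all libraries (edgeR adjusted p = 0.597) and 1.18 without that library (edgeR adjusted p = 0.0186). The guanylate cyclase activator gene guca1g was at 3.51, 2.96, 3.05 and 6.02 CPM in control and 7.41, 6.54, 5.65 and 6.17 CPM when exposed, and passed without that library (1.02 log2, edgeR adjusted p = 0.0274) but not with all 28 (edgeR adjusted p = 0.241). The steroid and fatty acid enzyme gene hsd17b12a (0.85 log2, edgeR adjusted p = 0.0189) and ifitm1 (0.83 log2, edgeR adjusted p = 0.045) likewise passed without it and not with all 28 libraries. In all of these genes the Cd 24 ug/L libraries also lay above control replicates 1 to 3. They held 77 to 95.2 CPM of pde6ha and 42.2 to 47.6 CPM of hsd17b12a. At least 3 of these genes also passed with all libraries once the ribosomal share was a covariate. The heme binding protein gene hebp2 (0.78 ± 0.13 log2, edgeR adjusted p = 0.00276) and PLEKHB1 (0.81 ± 0.16 log2, edgeR adjusted p = 0.0119) passed both ways. Leaving out control replicate 2 or PCB126 0.08 nM replicate 3 ended the PLEKHB1 call.

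Some low transcripts passed in edgeR without control replicate 4 and not with all 28 libraries. The junction gene AMOTL1 had 3.45, 4.83, 2.75 and 0.821 CPM in control and 0.647, 0.914, 0.513 and 0.754 CPM when exposed, so control replicate 4 lay inside the exposed range. It differed by -2.36 log2 without that library (edgeR adjusted p = 0.0274) and by -2.07 ± 0.54 with it (edgeR adjusted p = 0.117, DESeq2 adjusted p = 0.01). The kinase gene camk2b2 (-1.86 log2, edgeR adjusted p = 0.0497), the metalloproteinase gene mmp15b (-1.74, edgeR adjusted p = 0.0274), the integrin gene itga4 (-1.55, edgeR adjusted p = 0.0485) and the Notch effector gene rbpjb (-1.25, edgeR adjusted p = 0.0207) also passed in edgeR without that library and not with it, whereas DESeq2 called mmp15b with all libraries (adjusted p = 0.045). In itga4 and rbpjb control replicate 4, at 1.1 and 1.55 CPM, lay below every exposed library.

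Some moderate rises are named here after their values were seen and stand for no tested group. The desmosome gene pkp3a had 63.7, 67.1, 72.9 and 78.3 CPM in control and 109, 115, 114 and 110 CPM when exposed (0.67 ± 0.09 log2, edgeR adjusted p = 2.13e-04). The cornified envelope gene evpla had 43.8, 54, 48.6 and 42.3 CPM and 74.1, 81.3, 67.3 and 66.2 CPM (0.61 ± 0.10 log2, edgeR adjusted p = 0.00178). The splicing regulator esrp1, which sets epithelial isoforms in mammals, had 42.4, 43.7, 48.9 and 40.3 CPM and 66.7, 62.6, 62.3 and 67.4 CPM (0.56 ± 0.07 log2, edgeR adjusted p = 9.91e-05). The exposed libraries lay above the controls in all 3, and control replicate 4 lay within or near the other controls. The Cd 24 ug/L libraries also lay above every control in these genes. The desmosome-associated gene perp rose by 0.41 ± 0.08 log2 (edgeR adjusted p = 0.00718), a call lost without PCB126 0.08 nM replicate 1 or 4. Of the 31 tested epidermis genes, 1 rose with all libraries (evpla), beside 0.299% of all genes, 2 without control replicate 4, beside 0.335%, and 9 without both divergent libraries, beside 3.57%. With all libraries 14 of the 31 were above 0 and the median was -0.04 log2. The keratin genes krt15 (-0.75 ± 0.32 log2, edgeR adjusted p = 0.511), cyt1l (-0.58 ± 0.24, edgeR adjusted p = 0.497) and krtt1c19e (-0.51 ± 0.26, edgeR adjusted p = 0.578) had values below 0 and did not pass. Other keratin genes, krt5 (0.37), krt93 (0.44) and krt96 (0.30) among them, were above 0 and did not pass either. Without control replicate 4 krt15, cyt1l and krtt1c19e were at -0.14, -0.15 and 0.08 log2, and 26 of the 31 list members were above 0.

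Other genes, also named after their values were seen, differed by less than 2-fold. The carbonyl reductase gene cbr1 went from 11, 10.8, 10.3 and 9.49 CPM to 18.7, 20.5, 17.4 and 16.5 CPM (0.81 ± 0.10 log2, edgeR adjusted p = 7.33e-05). The transcription factor gene foxo1a, an effector of insulin signalling, went from 29.1, 30.7, 27.8 and 23.4 CPM to 45.7, 39.2, 47.8 and 48.7 CPM (0.71 ± 0.10 log2, edgeR adjusted p = 4.31e-04). Groups did not overlap in either gene. Against the Cd groups cbr1 was higher by 0.48 log2 (edgeR adjusted p = 0.00394), and foxo1a differed by 0.02 (edgeR adjusted p = 1). The transcription-coupled repair gene ercc6 rose by 0.58 ± 0.10 log2 (edgeR adjusted p = 0.00331) and porb, a P450 electron donor, by 0.27 ± 0.06 (edgeR adjusted p = 0.0445). The porb call was lost when any 1 of 7 libraries other than control replicate 4 was omitted. The replication and repair genes msh6 (-0.49 ± 0.11 log2, edgeR adjusted p = 0.0379), mdc1 (-0.48 ± 0.11, edgeR adjusted p = 0.0359) and atad2 (-0.51 ± 0.11, edgeR adjusted p = 0.0262) fell with all libraries. None of these 3 passed without control replicate 4 (edgeR adjusted p = 0.105, 0.0736 and 0.0775), or without any 1 exposed library. The msh6 and mdc1 calls were also lost without control replicate 1, and that for mdc1 without control replicate 2. All 3 passed without both divergent libraries, as did every gene called lower with all 28 libraries.

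Antioxidant, stress, lipid and hormone lists held few called genes. Of 26 tested Nrf2 response genes 1 rose (nfe2l2b), beside 0.299% of all genes, with a list median of -0.09 log2 beside -0.03. Without control replicate 4 the median was 0.08 beside 0.01, and keap1a, the Nrf2 inhibitor, was also called (0.47 log2, edgeR adjusted p = 0.00726). Without both divergent libraries 4 of the 26 rose, beside 3.57% of all genes. The antioxidant enzyme gene nqo1 differed by 0.04 ± 0.17 log2 (edgeR adjusted p = 0.958). Of 27 heat shock genes 1 fell (serpinh1b), with a median of -0.24 log2, and -0.08 without control replicate 4. Of 14 glucocorticoid response genes 1 fell (cebpd), with a median of -0.25, and -0.19 without it. Both counts stand beside 0.0866% of all genes, and neither serpinh1b nor cebpd passed without control replicate 4. Both genes passed without both divergent libraries, where 4.26% of all genes were lower. The photoreceptor list had 1 rise among 47 (the calcium sensor rcvrn3, 0.42 ± 0.07 log2, edgeR adjusted p = 0.00276), beside 0.299% of all genes. In the other 19 lists, with 437 tested genes between them, edgeR called none. In these, 11 genes were higher and 42 lower at an unadjusted p below 0.05, a threshold that 8.95% of all tested genes met, and DESeq2 called none higher and 3 lower. Of the 42 lower genes, 18 belonged to the proliferation list, which has 47 tested members. Its median was -0.34 log2, and -0.12 without control replicate 4, and in 14 members the exposed libraries lay below every control, beside 1.8% of all genes. DESeq2 called 2 of its members lower, beside 65 lower among all tested genes. Without both divergent libraries edgeR called 3 of them lower, beside 4.26% of all genes. With the ribosomal covariate it called 6 of them lower, beside 1.06% of all genes. The replication helicase gene mcm2 had 112, 111, 107 and 191 CPM in control and 93.6, 87.4, 88.8 and 87.6 CPM when exposed (-0.54 ± 0.14 log2, edgeR adjusted p = 0.0955). For tyms, the thymidylate synthase gene, the controls held 25, 26.6, 23.8 and 61.2 CPM and the exposed libraries 20.3, 17.9, 18.2 and 19.3 CPM (-0.85 ± 0.24 log2, edgeR adjusted p = 0.181). In both, control replicate 4 was far above the other controls, which were still above the exposed libraries. Hormone lists were also without a call. Of 13 listed estrogen genes, only the receptor genes esr2a, esr2b and gper1 were tested. The median with all libraries and without control replicate 4 was 0.03 and 0.08 log2 for steroid hormone synthesis (8 tested), -0.15 and 0.07 for the thyroid axis (12 tested), -0.45 and -0.61 for estrogen response (3 tested), and -0.26 and -0.03 for pituitary hormones (6 tested). For the hatching gland list (3 tested) it was -1.26 and -1.37. Its member he1.1 (-1.91 ± 0.75 log2, edgeR adjusted p = 0.457) did not pass, and its groups overlapped. The members he1.2 (-1.26) and klf17 (0.02) did not pass either.

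The medians of several tissue lists shifted with control replicate 4. For the 48 tested lens genes, mostly crystallins, the median was -0.15 log2 with all libraries and 0.44 without control replicate 4, when all 48 were above 0. Their summed level was 14332 to 14715 TPM in control replicates 1 to 3, 23630 TPM in control replicate 4 and 17536 to 18742 TPM at PCB126 0.08 nM. The exposed libraries therefore lay between the 2 kinds of control. With edgeR none of the 48 passed with all libraries or without control replicate 4, none had an unadjusted p below 0.05 with all libraries and DESeq2 called none, whereas 30 were higher without both divergent libraries, beside 3.57% of all genes tested in that fit. In whole larvae, more cells of a type and more RNA per cell cannot be told apart. Exocrine pancreas (28 tested) moved from a median of -0.02 to 0.36, epidermis from -0.04 to 0.27, hepatocyte (51 tested) from -0.11 to 0.17 and skeletal muscle (52 tested) from -0.16 to 0.08. The immediate early list stayed at -0.26 and -0.24. The median of all genes moved from -0.03 to 0.01 log2. Whether these tissue lists are higher at 0.08 nM thus depended on which control libraries were used.

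**Figure D4:**
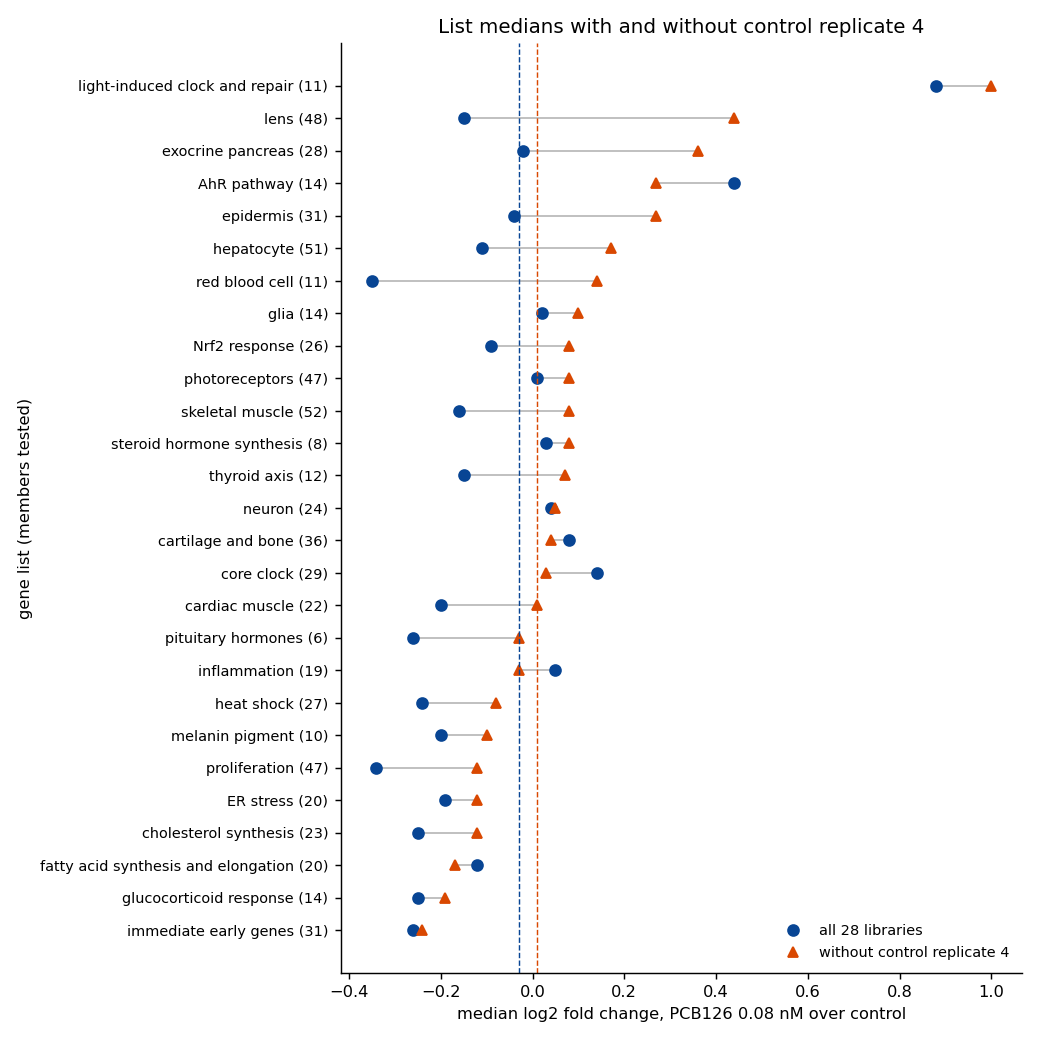
Median log2 fold change of PCB126 0.08 nM over control for each gene list with at least 5 tested members (number in brackets), with all 28 libraries (circles) and without control replicate 4 (triangles). Dashed lines mark the medians of all tested genes, -0.03 and 0.01. The lens list moves from -0.15 to 0.44, and the light-induced list is the highest with either set of libraries.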

How the data were processed

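Per the labels, RNA from whole larvae was selected with poly-T beads and primed with random hexamers, and both directional and non-directional libraries are named, leaving the strand setting open to doubt. The deposited table holds raw counts for 38318 genes. The submitters' processing notes name HISAT2 2.0.5, featureCounts 1.5.0-p3 and GRCz11. The annotation release is not given in the sources used here. Of these genes, 6417 are loci without an Ensembl identifier, with 7.71% of counts. The authors' deposited TPM table holds 27475 genes. Gene length, in bases, was used here only to describe the libraries and not in a test.

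The test was that of edgeR 4.0.16 (R 4.3.3; filterByExpr, TMM, glmQLFit and glmQLFTest, two-sided) in a model of all 28 libraries with a mean per group. P-values were Benjamini-Hochberg adjusted over 25393 genes, which held 99.9% of counts, and called at 0.05. CPM is the count divided by the TMM-scaled library total. Errors are SE for log2 changes and SD for CPM. Labels do not say whether replicates were separate clutches or dishes, so p-values reflect only the spread among these libraries, which may be technical. Replicate pairs including control replicate 4 differed by a chi-square per degree of freedom of 115 to 120 and the other pairs within a group by 3.98 to 6.2, so no pair was a repeat.

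Genes were named by rule: the 14 largest rises and 12 largest falls among the called genes, given a mean log2 CPM of 1 or more, no clone name as symbol, and every library on its own side of the other group's mean. The same rule without control replicate 4 added 6 and 6, each of 29 gene lists up to 4, and 26 genes were named regardless of values. Members and lists were chosen with earlier results of these data known. Of 812 distinct list symbols, 773 matched the table. Alternatives were DESeq2 1.42.0, other scaling and filters, a fold threshold, ribosomal protein share as a covariate, a replicate block, only the compared groups and leaving out libraries.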

Additional observations from a re-analysis of the deposited data

Results flagged for a closer look

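In 26 named genes the highest or lowest library of each group of 4 was compared with its neighbours by Dixon's gap ratio. For unselected values chance exceeds its critical value in about 1 of 20 groups. That rate does not hold here, since genes were named from values of these same libraries, which all the groups share. Of 52 groups, 8 were past the critical value, 6 of them in control and all 6 of those in control replicate 4. In control replicate 4 the highest values were 17.6 CPM for eevs, 57.5 CPM for tefa, 31.9 CPM for cry-dash, 501 CPM for cebpd, 72.9 CPM for serpinh1b and 91.3 CPM for cdca7a. At PCB126 0.08 nM, replicate 4 was highest for lonrf1 at 47.5 CPM, and replicate 1 was lowest for ugt1b1 at 15 CPM.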

How the results depend on the processing

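The count of 98 called genes was 234 with DESeq2, 777 with ribosomal protein share as a covariate, 1587 with only PCB126 0.08 nM and control replicates 1 to 3, 2005 without both divergent libraries, 58 at 1.5-fold or more, and 11 with only the groups compared. It was 95 with DESeq2 size factors, 74 without a filter and 100 with a filter at a mean of 10 counts. Leaving out 1 library gave 55 (PCB126 0.08 nM replicate 1) to 104 (control replicate 4). The count was also 55 without PCB126 0.08 nM replicate 4 and 58 without replicate 3. For PCB126 0.08 nM versus the mean of the 3 Cd groups, 63 became 421 with the covariate, 1234 without both divergent libraries and 160 with DESeq2, and 29 (without PCB126 0.08 nM replicate 2) to 105 (without Cd 2.4 ug/L replicate 3) on leaving out 1 library. For PCB126 0.8 nM versus 0.08 nM, 260 became 1427, 2811 and 552 in the same 3 settings, 1700 with only the groups compared, and 160 to 214 on leaving out 1 library. The cause was not tested.

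With replicate number as a block, 82, 57 and 239 genes passed in the 3 comparisons. Same-numbered control and PCB126 0.08 nM libraries correlated at -0.006, 0.226, -0.075 and 0.137 in their deviations, so the numbers were not taken as pairs. Some lens genes were below 0 with all libraries and did not pass, but were above 0 and passed in other sets. Among them was crygmx, at 0.24 log2 with PCB126 0.08 nM and control replicates 1 to 3 alone and 0.25 without both divergent libraries. Further examples were crygn2 at 0.33 in both and cryba1l1 at 0.37 in the former. Others, such as cryba2b (0.38) and cryba4 (0.45), did so without both divergent libraries. Counts of a few CPM limit ahrra, nfe2l2b and AMOTL1.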
